A study of Canis lupus familiaris with 16 samples.

Results

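RNA was compared between 2 vehicles, Dulbecco's phosphate-buffered saline (DPBS) and dimethyl sulfoxide (DMSO), in canine hepatocellular carcinoma cell lines. All 4 DPBS libraries were set against the DMSO libraries of 3 lines, namely KU-cHCC-002, -004 and -005, so 7 of the 16 libraries of the series entered the comparison. The lines were grown from liver tumours of dogs. Every culture was kept in the same serum-supplemented medium with N-acetyl-L-cysteine, an antioxidant, and received its vehicle for 24 h without drug. DMSO was the vehicle of sorafenib (30 µM in its own libraries) and DPBS that of toceranib (15 µM), and the volume of either vehicle is not given in the sources used here. By the labels, each line gave 1 library per treatment, and p-values measure only the spread between these libraries.

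DMSO is a polar organic solvent used to dissolve drugs that are poorly soluble in water, and it enters cells freely. DPBS is a buffered salt solution with the osmolarity of body fluids, used for drugs that dissolve in water. Epithelial cells carry keratins and junction proteins, and biliary or progenitor cells of the liver are known for keratins 7 and 19 and the adhesion protein EPCAM, whereas mature hepatocytes secrete albumin. In a cell's energy supply, 13 proteins of the respiratory chain are encoded by the mitochondrial genome and the others by the nucleus, so both sets of transcripts are needed to build one machinery.

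The labels were first set against measured transcripts. In raw CPM, the counts of a gene scaled to the total of its library, KRT7 lay between 3730 and 6850 and KRT19 between 2490 and 4540 in all 7 libraries, while ALB, which encodes albumin, did not exceed 0.362. The defining marker of hepatocytes was thus near 0 in every library, although the label is hepatocellular carcinoma, and 9 of the 40 hepatocyte markers in the files had no count in any of the 7. The DMSO library of line 001 had 324 CPM of KRT7, 24 CPM of KRT19 and 1260 CPM of L1CAM, and it was left out of the comparison for these measured levels. The DPBS library labelled 001 had 3780 CPM of KRT7, 2620 CPM of KRT19 and 1.56 CPM of L1CAM, so it went against its label. Because the labels did not place the DPBS libraries in lines, the vehicle and the mixture of lines in each group cannot be told apart. The same holds for any difference in preparation or processing between the 2 groups, which was not tested. LOC119877774, described below, took 2.22% to 4.97% of counts in the DMSO libraries and had 0 counts in all 4 DPBS libraries.

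The DPBS libraries fell into 2 close pairs. A noise index was computed for each pair of libraries as the median squared difference of depth-scaled counts over its Poisson expectation, so that a value of 1 is sampling noise alone. It was 2.48 between the DPBS libraries labelled 001 and 004 and 2.3 between those labelled 002 and 005. The other pairs of DPBS libraries had 21.1 to 25.1, and the pairs of DMSO libraries had 35 to 50.2. Both close pairs were above the limit of 1.2 under which libraries were to be counted as 1, so the comparison used 4 DPBS libraries, but they may not be 4 separate lines. Sorafenib libraries were not compared in this way. Among the DMSO and toceranib libraries, the DPBS libraries labelled 002 and 005 were nearest to the toceranib library labelled 005, at 12.5 and 15.7. The DPBS libraries labelled 001 and 004 were nearest to the toceranib library labelled 002, at 27.6 and 20.6. The toceranib library labelled 005 had 12.6 with the toceranib library labelled 004 and 40.7 with the DMSO library of line 005. Whether the toceranib labels give the line was not tested.

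**Figure D1:**
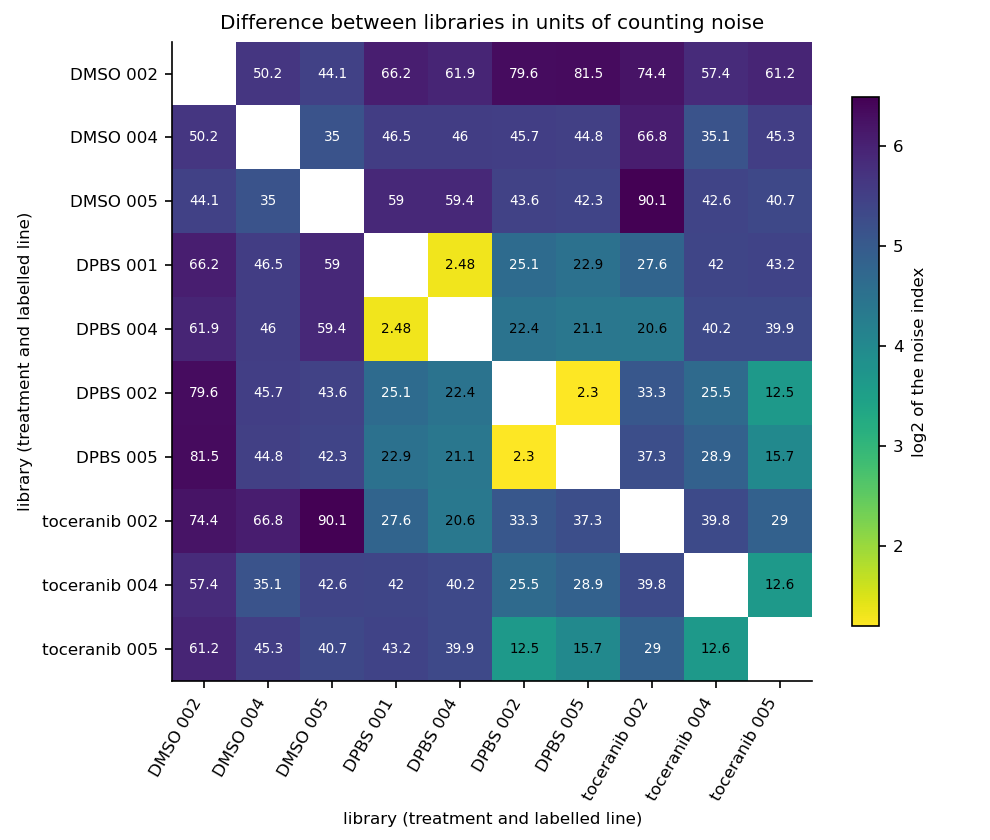
Noise index between libraries, for the 7 libraries compared and 3 toceranib libraries. Both axes give the treatment and labelled line, the number in each cell is the index (1 is sampling noise alone), and the colour is its log2. The cells of DPBS 001 with DPBS 004 (2.48) and of DPBS 002 with DPBS 005 (2.3) stand apart from all others drawn, which are 12.5 or more.

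Total counts were 18633873 to 19917958 in the DMSO libraries and 16349457 to 17959057 in the DPBS libraries, and genes with at least 10 counts numbered 13523 to 13845 and 14216 to 14668. More genes were thus detected with DPBS at a lower depth, and the part of depth in the results was not tested. With edgeR's quasi-likelihood test, 2378 of 14488 genes were called at a Benjamini-Hochberg adjusted p under 0.05, which is 16.4% of the genes tested. Of these, 1228 were higher with DPBS (8.48%) and 1150 were lower (7.94%). The values of the 2 groups did not overlap in 4696 genes (32.4%). The median log2 fold change of all genes tested was -0.01 (DPBS minus DMSO, as in all that follow).

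These counts depended on how the DPBS libraries were counted. With each close pair summed to 1 library, 1 gene was called, LOC119877774, and 2590 genes had an unadjusted p under 0.05. All 2372 of the called genes that were tested there kept their sign. That fit adds up the same counts, so the signs were nearly fixed beforehand. With the labelled line as a block over lines 002, 004 and 005, edgeR called 0 genes and 3531 had an unadjusted p under 0.05. Leaving out 1 DPBS library gave 1042 (labelled 001), 853 (002), 829 (004) and 853 (005) called genes. Every called gene below other than LOC119877774 lost its call when the pairs were summed, and the calls below are those with 4 DPBS libraries.

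Mitochondrial transcripts were higher with DPBS. Of the 13 protein-coding transcripts of the mitochondrial genome, 10 rose and 0 fell, against 8.48% and 7.94% of all genes, with a median log2 fold change of 1.01. They made up 9.78% of all counts in the DPBS library labelled 001, 11.1% in 002, 10.2% in 004 and 11.2% in 005. Their share was 4.12%, 5.84% and 4.7% in the DMSO libraries of lines 002, 004 and 005. Every DPBS library lay above every DMSO library, and the gap between the groups was wider than the range within either. The means were 10.6% ± 0.686 (SD, n = 4) and 4.89% ± 0.872 (SD, n = 3). The difference of 5.68 percentage points had an exact two-sided permutation p = 0.0571, which is the smallest that the 35 arrangements of 4 against 3 libraries allow, so this test cannot pass 0.05. Averaging each close pair keeps the difference at 5.68 points by arithmetic. The exact permutation p was then 0.2, the smallest that 2 against 3 values allow. Among the other libraries, the share was 0.981% to 1.97% with sorafenib and 5.75% to 13.2% with toceranib (where the library labelled 004 lists COX1 at 0), and the DMSO library of line 001 had 5.1%.

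**Figure D2:**
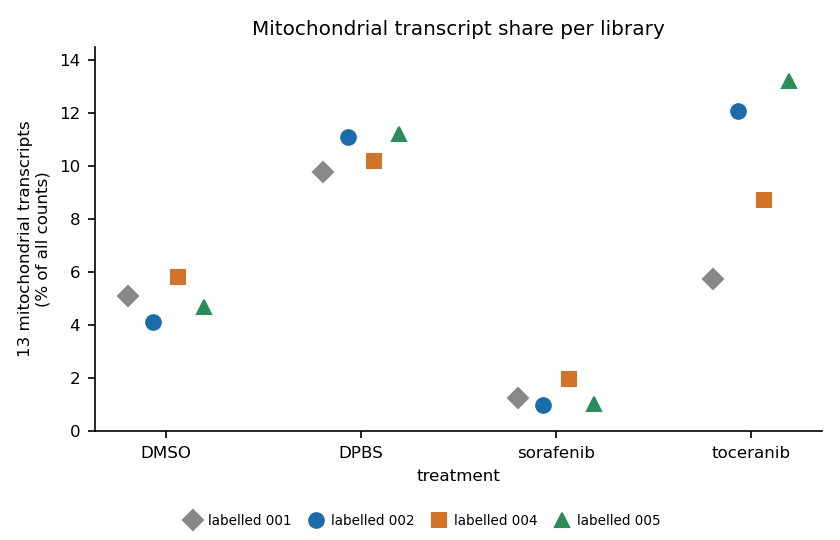
Share of all counts that came from the 13 mitochondrial protein-coding transcripts, in percent, for each of the 16 libraries by treatment; colour and shape give the labelled line, and each point is 1 library. The 4 DPBS libraries (9.78% to 11.2%) sit above the 4 DMSO libraries (4.12% to 5.84%).

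The members of this group did not move by the same amount. In CPM after TMM scaling, the unit of all CPM values from here unless named as raw, ND5, a core subunit of complex I, stood at 992, 1393 and 1309 in the DMSO libraries of lines 002, 004 and 005. In the DPBS libraries labelled 001, 002, 004 and 005 it stood at 6184, 6488, 6532 and 6558. The 4 DPBS values lay within a narrow band far above the DMSO values. It rose by 2.39 ± 0.157 (SE) on the log2 scale, and edgeR gave an adjusted p = 0.00184. ND4L, another complex I subunit whose reading frame overlaps that of ND4, was at 88.4, 178 and 210 with DMSO and at 807, 995, 824 and 1022 with DPBS. Its log2 fold change was 2.52 ± 0.298, larger than that of ND4 (0.92) with which it shares sequence.

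COX1, the catalytic subunit of cytochrome c oxidase, was at 10466, 19600 and 12350 CPM with DMSO and at 30969, 36379, 32643 and 37019 CPM with DPBS. The DMSO library of line 004 was the highest of its group and still below every DPBS library, and the log2 fold change was 1.28 ± 0.23. CYTB, the cytochrome b of complex III, also rose by 1.28 (SE 0.176). ND2 rose by 1.36, ND6 by 1.02, ND1 by 0.91, ATP8 by 1.01 and ATP6 by 0.54 on the log2 scale. COX2, COX3 and ND3 were not called, with log2 fold changes of 0.43, 0.27 and 0.25. ND3 was at 1039 CPM in the DMSO library of line 002, above all 4 DPBS libraries. ND4L and ND4, ATP8 and ATP6, and ND6 and ND5 lie on overlapping stretches, and nuclear copies of mitochondrial sequence exist, so how reads were shared among them is uncertain. Leaving out 1 library gave 9 to 12 called members, all higher.

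Some nuclear genes of the same machinery were lower. Of 46 tested nuclear genes of the respiratory chain, 15 fell, 0 rose and 31 were not called, against 7.94% lower among all genes, and the median log2 fold change was -0.41. Many of them are of high level, and in the fifth of all genes with the highest level 474 of 2898 fell (median -0.17). CYC1, the cytochrome c1 of complex III, was at 283, 254 and 254 CPM with DMSO and at 137, 123, 132 and 128 CPM with DPBS. The 2 groups were each tight and well apart, and CYC1 fell by 1.02 ± 0.108 (SE) on the log2 scale (edgeR adjusted p = 0.00496). ATP5F1B, the catalytic beta subunit of ATP synthase, fell by 0.73 on the log2 scale. NDUFS8 fell by 1.24, UQCRC1 by 0.82 and SDHB, a subunit of succinate dehydrogenase, by 0.59. COX4I1, a subunit of complex IV, was not called (320 against 291 CPM in the means). Leaving out a DPBS library gave 8 called members (001) or 7 (002, 004 and 005), and leaving out the DMSO library of line 004 gave 23.

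The nuclear genes that transcribe and translate mitochondrial DNA were mostly not called. Of 29 tested, 0 rose and 2 fell, against 16.4% called among all genes, with a median log2 fold change of 0.00. The 2 were the mitochondrial elongation factors TUFM, which fell by 0.57, and TSFM, which fell by 0.58. TFAM, which packages mitochondrial DNA and starts its transcription, was at 40.9, 43.9 and 46.5 CPM with DMSO and at 60.9, 49.5, 63.4 and 48.6 CPM with DPBS. The groups did not overlap, but the edgeR adjusted p was 0.136. POLRMT, the mitochondrial RNA polymerase, had a mean of 69.7 CPM with DMSO and 91.1 CPM with DPBS (edgeR adjusted p = 0.145).

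Cytosolic ribosomal protein genes were lower with DPBS. Of 74 tested, 57 fell and 0 rose, against 7.94% lower among all genes, the median log2 fold change was -0.71, and no member had a positive value. These genes are mostly of high level, and in the fifth of all genes with the highest level 474 of 2898 fell (median -0.17). Together they took 7.04%, 4.83% and 6.19% of raw counts in the DMSO libraries of lines 002, 004 and 005. In the DPBS libraries labelled 001, 002, 004 and 005 they took 4.54%, 3.89%, 4.14% and 3.79%. The groups did not overlap, but the DMSO library of line 004 lay close to the DPBS library labelled 001. RPLP0, of the ribosomal stalk, was at 1259, 1170 and 1137 CPM with DMSO and at 582, 460, 504 and 470 CPM with DPBS. It fell by 1.24 ± 0.125 (SE) on the log2 scale (edgeR adjusted p = 0.00472). RPSA, the laminin-receptor protein of the small subunit, fell by 1.14 and RPL8 by 1.11, and the changes furthest from 0 were those of RPL28 (-1.29) and RPS27 (-1.29). Ribosomal protein genes have many near-identical pseudogenes, so their counts are uncertain where reads could be split. Leaving out a DPBS library gave 37 (001), 26 (002), 23 (004) and 21 (005) called members, all lower, and removing the mitochondrial transcripts before scaling gave 57.

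**Figure D3:**
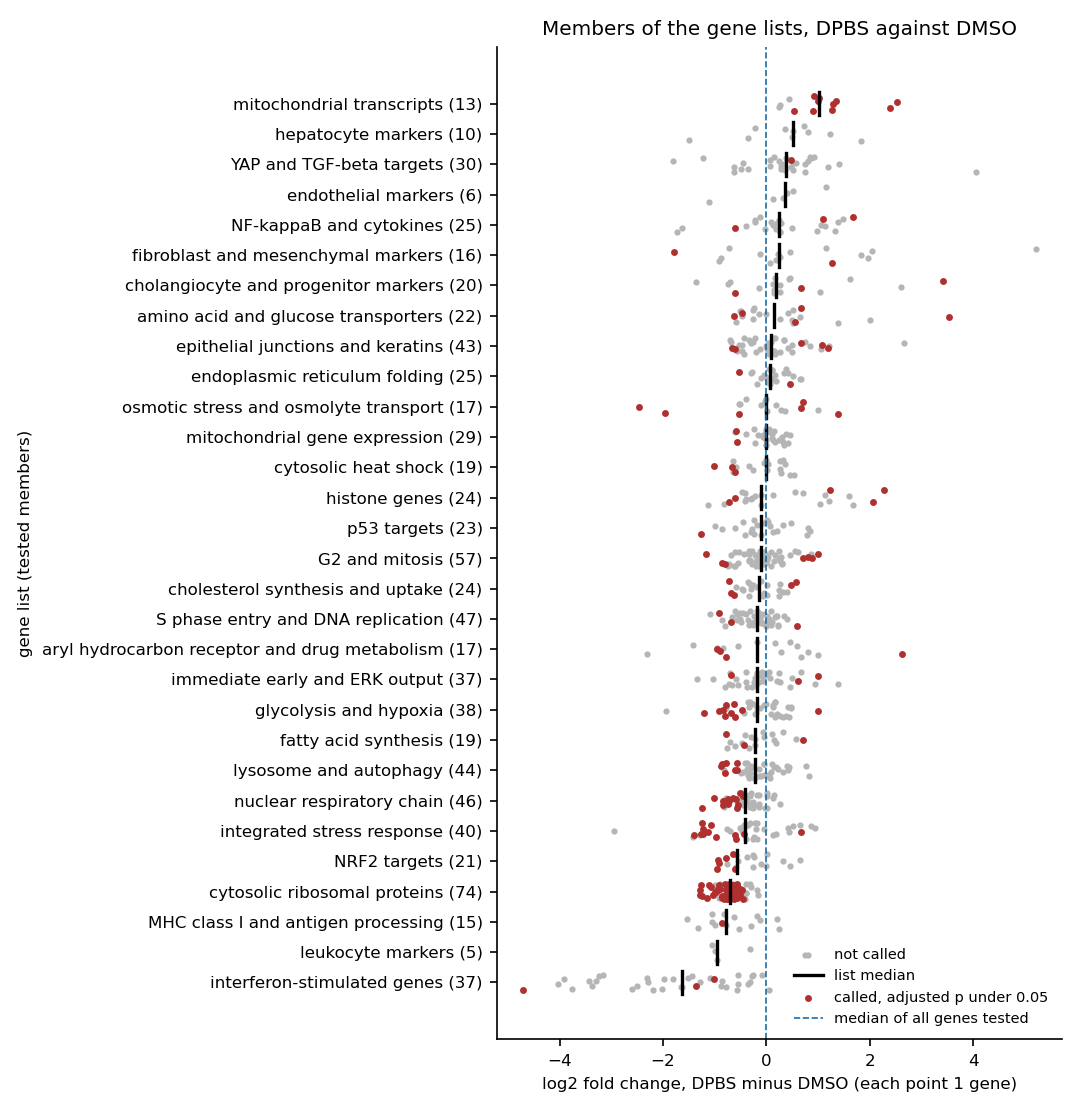
Log2 fold change (DPBS minus DMSO) of each tested gene in the 30 lists with tested members, 1 point per gene, with called genes in red and others in grey; the black bar is the list median and the dashed line the median of all genes tested (-0.01). Mitochondrial transcripts lie to the right (median 1.01) and cytosolic ribosomal proteins to the left (median -0.71), while interferon-stimulated genes spread widely to the left with few called.

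Some genes of the integrated stress response were lower. This pathway raises ATF4 and its targets when amino acids run short or protein folding fails. Of 40 tested members, 11 fell, 1 rose and 28 were not called, against 7.94% lower and 8.48% higher among all genes, and the median log2 fold change was -0.42. TRIB3, a pseudokinase induced by ATF4, was at 114, 80.8 and 100 CPM with DMSO and at 45.3, 39.1, 41.4 and 42.5 CPM with DPBS. All DPBS values lay well below the lowest DMSO value, and the log2 fold change was -1.22 ± 0.145 (SE). WARS1 fell by 1.24, IARS1 by 0.61 and GARS1 by 0.43, which are transfer RNA synthetases, and SHMT2 and PHGDH, of serine and glycine metabolism, fell by 1.12 and 0.98. CHAC1, which degrades glutathione, fell by 1.41, and NUPR1, SESN2, SLC6A9 and ATF4 itself fell by 1.07, 1.26, 1.23 and 0.58. The 1 member that rose was SLC38A2, a neutral amino acid transporter (log2 fold change 0.67). ASNS (188 against 148 CPM in the means) and DDIT3 (9.71 against 11.1 CPM) were not called. The count of lower members was 4 without the DPBS library labelled 001, 002 or 004, 6 without 005, and 7 without the DMSO library of line 004.

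Protein folding, heat shock and antioxidant genes were called at different rates, at 8%, 15.8% and 28.6% of tested members against 16.4% of all genes. Of 25 endoplasmic reticulum folding genes, HSPA5, the main chaperone there, rose by 0.46 and P4HB, a disulfide isomerase, fell by 0.53, while 23 were not called. Of 19 cytosolic heat shock genes, 3 fell: HSF1, the factor that switches on this response, by 1.02, the chaperone HSP90AB1 by 0.60, and the co-chaperone STIP1 by 0.67. Of 21 tested targets of NRF2, the regulator of antioxidant defence, 6 fell and 0 rose, with a median log2 fold change of -0.56. FTL, the ferritin light chain, was at 721, 736 and 758 CPM with DMSO and at 415, 382, 373 and 372 CPM with DPBS. These groups were tight and apart, with a log2 fold change of -0.94 ± 0.105 (SE). PGD, of the pentose phosphate pathway, fell by 0.92, TKT by 0.79, TALDO1 by 0.61, OSGIN1 by 0.64 and NQO1, a quinone reductase, by 0.95. HMOX1, GCLM and TXNRD1, which are also targets of NRF2, were not called. Leaving out the DPBS library labelled 001 or 004 gave 3 called members and leaving out 002 or 005 gave 2, all lower.

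Glycolytic enzymes were among the genes that were lower. Of 38 tested genes of glycolysis and hypoxia, 9 fell and 1 rose, which is 26.3% called against 16.4% of all genes, with a median log2 fold change of -0.19. In the fifth of all genes with the highest level, the median was -0.17 and 474 of 2898 fell. GAPDH was at 2390, 2043 and 2435 CPM with DMSO and at 1227, 1198, 1211 and 1191 CPM with DPBS. The DPBS values were nearly equal and below all DMSO values, with a log2 fold change of -0.92 ± 0.114 (SE). GPI, which isomerises glucose phosphate, fell by 1.2, TPI1 by 0.78, ALDOA by 0.84, ENO1 by 0.68 and HK1 by 0.61, and SLC2A1, a glucose importer, fell by 0.63. LDHA, lactate dehydrogenase, was at 1250 and 1207 CPM in the DPBS libraries labelled 001 and 004 and at 666 and 670 CPM in those labelled 002 and 005. The 2 close pairs thus lay on either side of the DMSO mean of 893 CPM for LDHA, and the gene was not called. KDM3A, a histone demethylase induced by hypoxia, rose from 31.3, 41.5 and 35.5 CPM with DMSO to 69.7, 76.3, 70.2 and 70.6 CPM with DPBS (log2 fold change 0.99 ± 0.136). Leaving out a DPBS library gave 5 (001) or 4 (002, 004 and 005) lower members.

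Genes of osmotic stress and water transport moved in both directions. NFAT5, the transcription factor of the response to hypertonicity, was at 26.1, 34.1 and 25.1 CPM with DMSO. With DPBS it was at 85.7, 64.5, 86.8 and 60.5 CPM, with the pair labelled 001 and 004 above the other pair and all 4 above DMSO. The log2 fold change was 1.39 ± 0.195 (SE). SLC12A2, a sodium, potassium and chloride importer, rose by 0.71, and SLC38A2 by 0.67. AQP3, a water and glycerol channel, was at 30.6, 73.9 and 39.6 CPM with DMSO and at 5.15, 13.6, 5.40 and 10.5 CPM with DPBS, a log2 fold change of -2.47 ± 0.431. AQP5, another water channel, fell by 1.97. In all, 3 of 17 members rose and 3 fell, which is 35.3% called against 16.4% of all genes, and the median was 0.00. Leaving out any 1 DPBS library gave 1 called member in each direction.

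The genes named for their size of change were called genes of at least 5 CPM in the higher group without groups that overlap, so the lack of overlap in them is not a result. Among the 15 that rose most were several carriers and secreted or surface proteins. GPR17, a G protein-coupled receptor, was at 0.584, 0.496 and 0.27 CPM with DMSO and at 7.47, 6.86, 8.02 and 5.97 CPM with DPBS, a log2 fold change of 3.96 ± 0.347 (SE). SPP1, which encodes osteopontin, a secreted matrix protein also made by biliary cells, was at 40.9, 27.5 and 6.58 CPM with DMSO and at 410, 131, 400 and 123 CPM with DPBS. SPP1 had like values in the libraries of a close pair, and its log2 fold change was 3.41 ± 0.749. The DMSO library of line 001, which was not compared, had 599 raw CPM of SPP1. That is above the DPBS libraries labelled 001, 002, 004 and 005, at 434, 135, 421 and 127 raw CPM. PKHD1, whose product fibrocystin sits on the primary cilium of bile duct and kidney cells, was at 15.5, 22.8 and 18.4 CPM with DMSO and at 85.8, 140, 84.9 and 123 CPM with DPBS. Its log2 fold change was 2.52 ± 0.247.

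Other genes in this group of 15 covered several functions. SLC5A8, which carries monocarboxylates with sodium, rose by 3.20 and SLC5A9, which carries sugars with sodium, by 2.49. PDGFD, a growth factor of the platelet-derived family, rose by 2.77, AMOT, an angiomotin that binds YAP, by 2.57, and EDARADD, the adaptor of the ectodysplasin receptor, by 2.56. ADGRV1, a very large adhesion receptor, rose by 3.38, SLITRK4, a surface protein known from neurons, by 3.18, DNAH10, a motor protein of motile cilia, by 2.53, and SERPINF2, the inhibitor of plasmin, by 2.56. KANK1, a regulator of the actin cytoskeleton, rose by 3.67, but with the DMSO library of line 001 included its value was -2.17. Over the alternative settings, the lowest log2 fold change was 0.473 for ADGRV1, 1.265 for EDARADD and 1.569 for AMOT. The mitochondrial ND4L and ND5 completed the 15.

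The 15 genes that fell most included several that were high in 1 DMSO library. RUNX3, a transcription factor, was at 2.80, 16.7 and 1.24 CPM with DMSO and at 0.263, 0.059, 0.349 and 0.11 CPM with DPBS. The DMSO library of line 004 was the highest for RUNX3, and the log2 fold change was -5.10 ± 1.00 (SE). NCCRP1, an F-box-like protein of epithelia, was at 62.5, 360 and 77.8 CPM with DMSO and at 18.5, 9.49, 19.6 and 11.3 CPM with DPBS (log2 fold change -3.5 ± 0.641). FUT5, a fucosyltransferase, APOL5, of the apolipoprotein L family, SEMA3A, a secreted guidance protein, and CASP4, an inflammatory caspase, were also highest in the DMSO library of line 004.

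Among the rest of the 15, the DMSO library of line 004 was again the highest of its group for MX1, AQP3, C7H1orf21, THSD4, NR2F1 and APBA1. It was not the highest for S100A16, SCNN1B and EXOC3L1. C7H1orf21 was at 32, 51.1 and 26.5 CPM with DMSO and at 9.20, 7.33, 7.96 and 8.32 CPM with DPBS, which fell by 2.15 ± 0.238 (SE) on the log2 scale. S100A16, a calcium-binding protein, fell by 2.28 and THSD4, a secreted protein with thrombospondin repeats, by 2.17. SCNN1B, the beta subunit of the epithelial sodium channel, fell by 2.53, with 2.87 CPM in the DMSO library of line 004 against 13 and 12 CPM in those of lines 002 and 005. NR2F1, an orphan nuclear receptor, fell by 3.40 and was lowest of the DMSO libraries in line 005, where EXOC3L1, which fell by 2.91, was highest. The last was APBA1, a synaptic adaptor, which fell by 1.96.

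**Figure D4:**
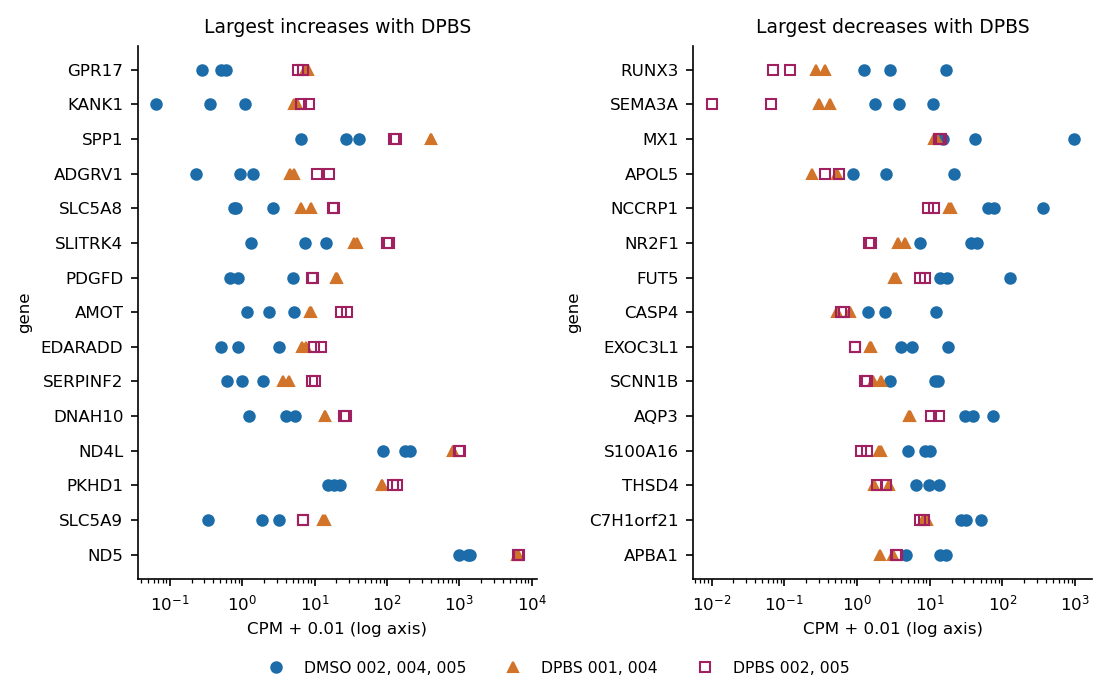
CPM after TMM scaling plus 0.01, on a log axis, for the 15 called genes with the largest increase (left) and the 15 with the largest decrease (right); blue circles are the 3 DMSO libraries, orange triangles the DPBS libraries labelled 001 and 004, and open squares those labelled 002 and 005. The groups do not overlap in any of the 30 because the rule required it; MX1 shows the widest spread among DMSO libraries, from 15.4 to 960 CPM.

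The genes with the smallest p-values were looked at after their values were seen. Besides ND5 and GPR17, those that rose included KMT2D, which methylates histone H3, with 57, 65.7 and 62.5 CPM with DMSO and 189, 177, 200 and 172 CPM with DPBS. The DPBS libraries of both pairs lay close together for KMT2D, and it rose by 1.58 ± 0.122 (SE) on the log2 scale (edgeR adjusted p = 0.00321). PKD1, which encodes polycystin-1, also found on the primary cilium, rose by 1.93, JAG1, a ligand of Notch receptors, by 2.06, and LAMA5, a laminin of basement membranes, by 1.41. PCF11, of messenger RNA cleavage, rose by 1.31 and SRRM2, of splicing, by 1.28. Those that fell included RHOC, a small GTPase, at 136, 121 and 120 CPM with DMSO and at 55.5, 53.6, 50.7 and 51.5 CPM with DPBS (log2 fold change -1.25 ± 0.111). TFF1, a secreted trefoil peptide of mucous epithelia, was at 859, 1169 and 666 CPM with DMSO and at 254, 247, 282 and 236 CPM with DPBS (log2 fold change -1.82 ± 0.191). SLC25A1, the mitochondrial citrate carrier, fell by 1.02.

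Interferon-stimulated genes had the lowest median of the lists, and 1 DMSO library decided it. Of 37 tested, 3 fell and 0 rose, a share of 8.11% against 7.94% lower among all genes, and the median log2 fold change was -1.63. MX1, an antiviral GTPase, was at 15.4, 960 and 41.8 CPM with DMSO and at 12.7, 13.3, 11.3 and 14.4 CPM with DPBS. The DMSO library of line 004 stood far above all others, and the DMSO library of line 002 was close to the DPBS libraries. STAT2, a transcription factor of interferon signalling, fell by 1.35 on the log2 scale. ISG15 was at 6.78, 500 and 72.2 CPM with DMSO and at 8.89, 27.3, 10.9 and 27.4 CPM with DPBS, and was not called. The DESeq2 Wald test called 14 members, all lower. Without the DMSO library of line 004 the median was -0.38 with 2 called members, and without the DMSO library of line 002 it was -2.15 with 14 called members. Without any of the DPBS libraries labelled 001, 002 or 004 no member was called, and without 005 there was 1.

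Cell cycle genes did not move as a group. Of 57 tested genes of G2 and mitosis, 4 rose and 3 fell, which is 12.3% against 16.4% of all genes, and the median log2 fold change was -0.11. KIF20B and KIF14, kinesins of cell division, rose by 1.00 and 0.81, CENPE, a kinetochore motor, by 0.89, and ANLN, of the cleavage furrow, by 0.71. BIRC5, CENPM and the kinase PLK1 fell by 0.86, 1.16 and 0.80. Of 47 genes of S phase entry and DNA replication, E2F3 rose and CCND3 and CDK4 fell, with a median of -0.18. That is 6.38% called, against 16.4% of all genes. Without the DMSO library of line 004, 10 of the G2 and mitosis genes were lower and 2 higher, and 14 of the S phase genes were lower. No lower member of G2 and mitosis was called without any other 1 library, and in S phase 1 lower member was called without the DMSO library of line 002 and none without the others.

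Of the lists of lipid synthesis and of the lysosome, 20.8% of cholesterol genes, 15.8% of fatty acid genes and 15.9% of lysosome and autophagy genes were called, against 16.4% of all genes. Of 24 cholesterol genes, 3 fell, among them MVK by 0.73 and MVD by 0.69, while HMGCS1 and SC5D rose by 0.48 and 0.58. Of 19 fatty acid genes, the elongase ELOVL6 rose by 0.72, and AGPAT2 and the elongase ELOVL1 fell by 0.78 and 0.43. Of 44 lysosome and autophagy genes, 7 fell and 0 rose, with a median of -0.23. These included GABARAP, of the autophagosome, which fell by 0.86, ATP6V0D1, of the proton pump, by 0.88, and TFE3, a transcription factor of lysosome genes, by 0.79. Leaving out any 1 DPBS library gave 3 lower members of the lysosome list.

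Among the other lists, 23.5% of drug metabolism genes and 22.7% of transporters were called, and 12% of NF-kappaB and cytokine genes, against 16.4% of all genes. Called shares were 8.11% for immediate early and ERK output genes, 3.33% for YAP and TGF-beta targets and 4.35% for p53 targets. They were 6.67% for MHC class I and antigen processing and 20.8% for histone genes. Of 25 tested genes of NF-kappaB and cytokines, LIF and CCL20 rose by 1.09 and 1.68 and RELA fell by 0.61. Of 37 immediate early and ERK output genes, SPRY2 and EPHA2 rose by 1.01 and 0.61 and IER2 fell by 0.69. Of 30 YAP and TGF-beta targets, SKI rose by 0.49, and of 23 p53 targets, SESN2 fell. In the list of aryl hydrocarbon receptor and drug metabolism genes, ABCG2, a drug exporter, was at 0.467, 0.386 and 0.485 CPM with DMSO and at 1.95, 3.93, 1.74 and 3.5 CPM with DPBS. The DPBS libraries labelled 002 and 005 were the higher pair for ABCG2, whose log2 fold change was 2.62 ± 0.427 (SE), while NQO1, GSTP1 and SULT1A1 of the same 17 genes fell. Of 22 amino acid and glucose transporters, SLC38A2, SLC7A6 and SLC5A1 rose by 0.67, 0.56 and 3.54, and SLC2A1 and SLC16A3 fell by 0.63 and 0.46. SLC5A1 did not meet the rule of the 15 largest increases, which asks for at least 5 CPM and no overlap. Of 15 genes of MHC class I and antigen processing, 1 fell, PSME1, by 0.85. Of 24 histone genes, H1-4, H2BC3 and H2BC9 rose and H2BC18 and H1-10 fell, and near-identical histone copies make these counts uncertain.

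Epithelial genes were present in all 7 libraries. Of 43 tested junction and keratin genes, 3 rose and 2 fell, which is 11.6% called against 16.4% of all genes, with a median log2 fold change of 0.08. CLDN2, the claudin of leaky epithelia, was at 33, 21.6 and 39.6 CPM with DMSO and at 76.5, 63.6, 83.6 and 63.7 CPM with DPBS (log2 fold change 1.19 ± 0.224, SE). EPCAM rose by 0.66 and OVOL1, a transcription factor of epithelial differentiation, by 1.07. KRT7 was at 7451, 5338 and 5586 CPM with DMSO and at 3565, 4490, 3546 and 4468 CPM with DPBS, and fell by 0.61. JUP, a junction protein, fell by 0.67. Of 20 biliary and progenitor markers, EPCAM and SPP1 rose and KRT7 fell, which is 15% called against 16.4% of all genes.

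In edgeR, 0 of the 10 tested hepatocyte markers, 6 endothelial markers and 5 leukocyte markers were called, against 16.4% of all genes. Each of these lists is too small to tell 0 calls from that share. At an unadjusted p under 0.05 the lists had 2, 0 and 2 members, and the DESeq2 Wald test called 1, 0 and 0. HNF4A, a hepatocyte transcription factor, was at 77.5, 37.7 and 55.9 CPM with DMSO and at 116, 73.5, 114 and 75.6 CPM with DPBS, so its groups overlapped. APOB, a hepatocyte lipoprotein, was at 8.41, 49.1 and 29.9 CPM with DMSO and at 45.5, 155, 48.9 and 165 CPM with DPBS. In bulk RNA, fewer cells of a type and less RNA per cell cannot be told apart. The summed raw CPM of hepatocyte markers was 294 to 306 with DMSO and 399 to 477 with DPBS, that of endothelial markers 52.6 to 78 and 49.6 to 70.3, and that of leukocyte markers 40.9 to 85.7 and 48.5 to 73.2.

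Mesenchymal markers set the DPBS pairs apart. The summed raw CPM of 35 markers was 3150, 3450 and 3580 in the DMSO libraries and 3470 and 3570 in the DPBS libraries labelled 001 and 004, but 7220 and 7370 in those labelled 002 and 005. In the first 5 libraries 9 to 12 of the markers reached 5 CPM, and in the last 2 libraries 21 and 22 did. COL3A1, a fibrillar collagen, had 73.9 and 81.7 raw CPM in the DPBS libraries labelled 002 and 005 and 0 counts in the other 5. COL1A2, another, had 63 and 64.9 raw CPM in that pair and 0 counts in the other 5. ACTA2, the smooth muscle actin, had 62.2 and 63.8 raw CPM in that pair against at most 1.81 in the others. The toceranib library labelled 005 also held COL3A1 and ACTA2, at 50.8 and 107 raw CPM, whereas the sorafenib library of line 005 had 0 and 0.399. Of the 16 tested markers, LOX, which cross-links collagen, rose by 1.27 and S100A4 fell by 1.79 on the log2 scale. That is 12.5% called, against 16.4% of all genes. With the DMSO library of line 001 included, LOX had a log2 fold change of -1.77.

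Genes that separated the DPBS pairs were listed after their values were seen, as those at least 4-fold higher in both libraries of a pair than in both of the other, at 10 CPM or more. There were 54 higher in the DPBS libraries labelled 001 and 004 and 79 higher in those labelled 002 and 005, and 0 of either were called between the vehicles. The choice widens the spread within the DPBS group that the test uses, so nothing is read from that count. MUC16, a membrane mucin, had 118 and 121 raw CPM in the first pair and 1.21 and 0.846 in the second. Among the DMSO libraries MUC16 had 154 raw CPM in line 002, 104 in line 004 and 0.313 in line 005, so these were on both sides. The toceranib library labelled 004 had 0.421 raw CPM of MUC16. ANO1, a chloride channel, had 199 and 212 raw CPM in the first pair, 18.8 and 17.4 in the second, and 162 in the DMSO library of line 002. In the second pair, CCN3, a matricellular protein, had 218 and 223 raw CPM against 8.19 and 6.48 in the first. CCN3 had 54.8 raw CPM in the DMSO library of line 005 and 147 in the toceranib library labelled 005. The DMSO libraries of lines 002, 004 and 005 thus differed among themselves for the same genes.

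**Figure D5:**
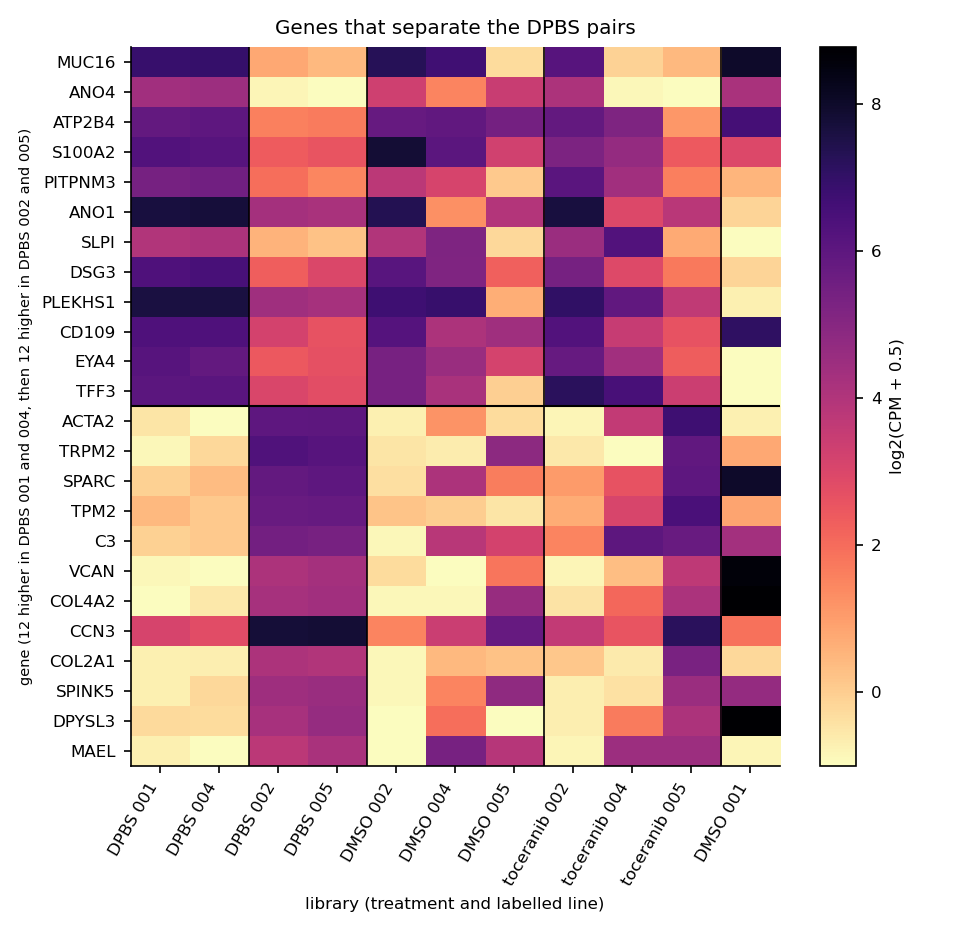
Raw CPM, as log2(CPM + 0.5) in colour, of 24 genes that separate the close DPBS pairs (rows: 12 higher in DPBS 001 and 004, then 12 higher in DPBS 002 and 005), in 11 libraries (columns: the 4 DPBS, 3 DMSO and 3 toceranib libraries and the DMSO library of line 001, which was not compared). In the lower block, ACTA2 is high in DPBS 002, DPBS 005 and toceranib 005, whereas SPARC, VCAN, COL4A2 and DPYSL3 are highest in DMSO 001. In the upper block, ANO1 is high in DPBS 001, DPBS 004, DMSO 002 and toceranib 002.

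LOC119877774, the gene that was called with each close pair summed, had no match in the gene table used. It took 3.37%, 2.22% and 4.97% of counts in the DMSO libraries of lines 002, 004 and 005 and had 0 counts in all 4 DPBS libraries. A count of 0 allows up to 3 counts, which is 0.167 to 0.183 raw CPM in these libraries. It was also at 0 in the toceranib library labelled 005 and took 0.771% to 4.25% of counts in each of the other 8 libraries. COX1 was likewise listed at 0 in the toceranib library labelled 004, so a 0 of an abundant transcript may be a failed estimate in these files. No fold change is given for LOC119877774 for that reason.

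Called genes differed by expression level and class. Among the fifth of genes with the lowest mean level, 418 were higher and 45 lower with DPBS, with a median log2 fold change of 0.45. In the fifth with the highest level, 164 were higher and 474 lower, with a median of -0.17. Of 12230 protein-coding genes tested, 828 were higher and 1083 lower. Of 1487 long noncoding RNAs, 262 were higher and 23 lower, with a median of 0.41, and of 291 pseudogenes 56 were higher and 21 lower. These classes were taken from the RefSeq gene table, and level and class overlap, since noncoding RNAs are often of low level. LOC119872424, listed by RefSeq as a guide RNA and singled out after its values were seen, was at 1.81, 1.43 and 2.59 CPM with DMSO and at 28.3, 31.8, 38.5 and 32.2 CPM with DPBS. Both groups were tight and far apart, and it rose by 4.07 ± 0.257 (SE) on the log2 scale (edgeR adjusted p = 0.00184).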

How the data were processed

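Libraries were made from Trizol RNA with a stranded NEBNext kit, per the labels' protocols. The deposited values are raw counts for each gene symbol, whole and without normalization. TopHat is listed per the submitters' processing notes. Neither its version nor the counter, its strand setting, genome build or annotation is given in the sources used here, so antisense and overlapping genes may share counts. Counts of entries sharing a symbol (500 of 39954) were summed to 39543 symbols, of which 37336 matched the RefSeq gene table of assembly UU_Cfam_GSD_1.0, used only for names and classes.

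Genes passing filterByExpr were fitted with edgeR 4.0.16 (R 4.3.3, limma 3.58.1; TMM scaling, robust quasi-likelihood, treatment alone, 5 residual degrees of freedom) on 7 libraries, with Benjamini-Hochberg adjustment over 14488 genes. SE is the absolute log2 fold change over the square root of F. DESeq2 1.42.0 was an alternative, and permutation used scipy 1.17.1. The fit was tested on simulated data. Genes are named as the 15 called, non-overlapping genes of at least 5 CPM with the largest change in each direction (LOC symbols left out), up to 3 called members of each list by smallest p (or 2 uncalled), the mitochondrial transcripts and 10 identity markers; other called list members were added after their values were seen. Members, lists and rules were chosen with earlier results of these data known, and the exclusion of the DMSO library of line 001 used measured levels. Sex chromosome transcripts were not analysed here. Some genes that the naming rule covers are not reported here. Labelled lines were not used to pair samples, because the DPBS library labelled 001 went against its label and the DPBS libraries formed 2 close pairs. Deviations of DMSO and DPBS libraries from their group means correlated at -0.519 (002), -0.071 (004) and 0.488 (005). Deviations in a group sum to 0, so a positive value with 1 close pair nearly forces a negative one with the other. These correlations therefore cannot decide the pairing. Across labels, the DMSO library of line 002 correlated with the DPBS libraries labelled 001 and 004 (0.53 and 0.551), that of line 005 with the DPBS library labelled 002 (0.471), and that of line 004 with none above 0.092. Alternatives covered scaling, filters, mitochondrial transcripts, duplicated symbols, libraries left out and pairing.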

Additional observations from a re-analysis of the deposited data

Results flagged for a closer look

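In the 4 DPBS libraries, 112 values were tested for a single library far from the others, and 2 were found, where chance gives about 1 in 20. RPL8 was at 953 CPM in the DPBS library labelled 001 against 826 to 848 in the other 3, a gap of 0.831 of the whole range. KDM3A was at 76.3 CPM in the DPBS library labelled 002 against 69.7 to 70.6 in the other 3, a gap of 0.863 of the range.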

How the results depend on the processing

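The number of called genes (2378) was 3619 with the DESeq2 Wald test, 1 with the close DPBS pairs summed, 1 without the DPBS libraries labelled 002 and 005, 624 without those labelled 001 and 004, and 485 with the DMSO library of line 001 included. With the labelled line as a replicate block (6 libraries), 0 genes were called in edgeR and 3531 had an unadjusted p under 0.05. The 2342 called genes tested there kept their sign, but the 6 libraries are among those of the main fit, so this is no separate check. The main fit did not pair the libraries by labelled line. Leaving out each library in turn gave 829 to 2670 called genes and a difference in mitochondrial share of 5.3 to 6.16 points. That share differed by 5.63 points with the DMSO library of line 001 included. The exact permutation p = 0.0286 is the smallest that 4 against 4 libraries allow, and it rests on adding a library left out for its measured levels. In the pairing by labelled line, the share differed by 5.95 points. Other scaling, filter and symbol settings gave 1657 to 2417 called genes, including 2350 with LOC119877774 removed, a setting chosen after seeing the data. KANK1 (-2.17) and LOX (-1.77) reversed with the DMSO library of line 001 included. Of 111 named genes, 102 lost their call with the pairs summed, with the replicate block, or without the DPBS libraries labelled 002 and 005. Medians of 15 lists changed sign under at least 1 setting. At the depth of these 7 libraries a count of 0 allows 0.151 to 0.183 CPM.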
